A study of Schizosaccharomyces pombe with 12 samples.

Results

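Untreated diploid cells of the fission yeast *S. pombe* were compared with untreated haploid cells of the same mating type. The comparison used 6 of the 12 libraries of the study, the 3 of diploid NT (no treatment) and the 3 of haploid NT, chosen by their labels. The haploid strain was h- *smt-0* and carried *his3-D1*, *ura4-D18*, *leu1-32* and *ade6-M210*. The diploid was h-/h- *smt-0*, made by fusing protoplasts of haploids of that background, with the first 3 markers in both copies and *ade6-M210* over *ade6-M216*. Both grew in rich YES medium at 32 °C, and the cultures were divided at mid-log phase and grown for 4 h more. The other 6 libraries came from the parts of the cultures that received 0.0075% methyl methanesulfonate (MMS) and enter here only through the shared estimate of the spread and where they are named. Each ploidy was a single strain, so ploidy and anything else that separates the strains cannot be told apart. This holds for adenine too, since *ade6-M210* and *ade6-M216* complement each other and the haploid strain lacks that function.

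A diploid cell holds an extra copy of every chromosome and is larger than a haploid of the same strain, and fission yeast is a rod that grows at its tips. Surface grows more slowly than volume as a cell enlarges, so the cell wall, the plasma membrane and the nuclear envelope serve more cytoplasm in a diploid. The *smt-0* deletion prevents mating-type switching, so the h-/h- diploid has the mating type of the haploid and does not enter meiosis as an ordinary h+/h- diploid can.

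The NT libraries held between 15684278 and 18855166 counts over genes. The unit of expression is CPM, the reads of a gene scaled to a common library size after TMM normalization, with values listed for replicates 1, 2 and 3 in that order. Haploid NT 1 stood apart. The median absolute log2 difference over genes between haploid NT 1 and the other haploid NT libraries was 0.26 and 0.25, against 0.10 between those 2 libraries and 0.09 to 0.11 among the diploid NT libraries. Haploid NT 1 differed from the diploid NT libraries by 0.20 to 0.22. No source marks this library as different, so it was kept, and the counts of a gene group without it are given where they moved by more than 1.5 times. Both strains lack *ura4*, which stood at 0 counts in all 6 libraries, and *his3*, which had between 2 and 7. Of the M-cell genes, *mam3*, which is needed for cell agglutination, fell in diploids. *mam3* stood at 130, 156 and 135 CPM in haploid NT and 91, 80.9 and 72.5 CPM in diploid NT (log2FC -0.79, SE 0.14, adjusted p = 0.0088). None of the other 7 M-cell genes measured passed the test, and 2 of the list fell when haploid NT 1 was left out. The M-factor pheromone gene *mfm2* stood at 12.6, 16.9 and 13.9 CPM in haploid NT and 26.7, 28.4 and 23.2 CPM in diploid NT (log2FC 0.85, SE 0.23, adjusted p = 0.056), and the groups did not overlap. The P-cell genes were listed as markers that h- cells should lack, and the data went against this for the 5 that were measured. The P-factor gene *map2* had 1391 to 2525 counts in haploid NT and 1847 to 3249 in diploid NT, and *sxa1* stood at 1380 to 1640 CPM in the 6 libraries. The annotated *map2* overlaps *ura6* on the other strand by 1315 bases, and the strand setting of the counting is not known here, so the reads of those genes cannot be told apart. None of the 5 P-cell genes measured passed the test between diploid and haploid NT.

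Of the 4584 genes tested, 51 were higher in diploid NT (1.11%) and 82 were lower (1.79%) past both thresholds, an adjusted p below 0.05 and a log2 fold change (log2FC) of more than 0.58 in size. P values came from edgeR's quasi-likelihood test with Benjamini-Hochberg adjustment over all genes, with 3 libraries per group, and log2FC is diploid over haploid. Without the fold threshold 86 genes rose (1.88%) and 175 fell (3.82%), and these are the calls counted for gene groups below. In all 133 genes past both thresholds the 3 diploid values lay beyond the 3 haploid values, which held for 29.3% of all genes. The replicates are described as biological, and p-values measure the spread between libraries of a single strain per ploidy. In bulk RNA, more cells of a stage and more RNA per cell of that stage cannot be told apart. A change of more than 2-fold in the fit, an absolute log2FC above 1, was reached by 16 of the 51 and by 14 of the 82.

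The calls depended on the libraries. Without haploid NT 1 the counts were 135 higher and 151 lower, and leaving out any of the other 5 NT libraries gave 20 to 39 higher and 41 to 64 lower. In all 6 such fits 17 of the 51 and 34 of the 82 were called. Of the 110 genes named here by rule that passed an adjusted p under 0.05, all kept the sign of their log2FC in the 6 fits, and 47 passed in each of them. "Held" below is used of genes that passed in all 6. In the MMS-treated parts of the cultures, which share their strains with the NT libraries and where 22 genes rose (0.480%) and 16 fell (0.349%) at an adjusted p under 0.05, diploid minus haploid had the sign seen in NT for 51 of 51 and 81 of 82 of these genes, against 71.4% of the genes called in neither direction. The median log2FC of the 51 was 0.82 in NT and 0.62 in MMS, and that of the 82 was -0.72 in NT and -0.42 in MMS.

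Among the largest rises were genes that haploids barely expressed. The largest was that of SPBPB10D8.02c, annotated as an arylsulfatase, at 15, 54 and 58 counts in haploid NT and 587, 502 and 396 in diploid NT (log2FC 3.52, SE 0.67, adjusted p = 0.012). The gene lies at chrII:83229-85631, minus strand, in the deposited coordinates, and overlaps SPBPB10D8.01, a cysteine transporter on the other strand, by 129 bases, and that gene stood at 3.46, 9.25 and 11.1 CPM in haploid NT and 31.3, 31.5 and 27.3 CPM in diploid NT (log2FC 1.92, SE 0.48, adjusted p = 0.038). Next came *ftm4* (chrI:5565881-5567337, minus strand), which encodes a predicted membrane protein, with 9, 23 and 161 counts in haploid NT and 677, 522 and 596 in diploid NT (log2FC 3.21, SE 0.80, adjusted p = 0.038). The haploid libraries thus differed among themselves in these genes far more than the diploid libraries did.

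SPBPB2B2.05, a predicted glutamine amidotransferase, had 1, 23 and 21 counts in haploid NT and 116, 102 and 61 in diploid NT (log2FC 2.61, SE 0.51, adjusted p = 0.013). SPBPB8B6.02c, a urea transporter, and *grt1*, a transcription factor gene, lie close together near the left end of chromosome II. SPBPB8B6.02c stood at 0.625, 2.23 and 3.1 CPM in haploid NT and 8.59, 9.63 and 5.72 CPM in diploid NT (log2FC 2.01, SE 0.42, adjusted p = 0.017). *grt1* stood at 3.52, 7.76 and 8.12 CPM in haploid NT and 20.5, 19.3 and 17.4 CPM in diploid NT (log2FC 1.56, SE 0.37, adjusted p = 0.031), although *grt1* overlaps *fah1* on the other strand by 1703 bases. The flocculin gene *pfl7* (chrII:117892-121286, minus strand), for a cell-surface adhesin, stood at 1.42, 1.92 and 5.31 CPM in haploid NT and 17.6, 17.8 and 16.5 CPM in diploid NT (log2FC 2.58, SE 0.38, adjusted p = 0.0039). Haploid NT 1 had the lowest value of the 6 libraries in each of these 7 genes. SPBPB10D8.02c and *pfl7* held, whereas SPBPB2B2.05 lost its call in 2 of the 6 fits, SPBPB8B6.02c in 3, *ftm4* in 4, and SPBPB10D8.01 and *grt1* in 5.

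**Figure D1:**
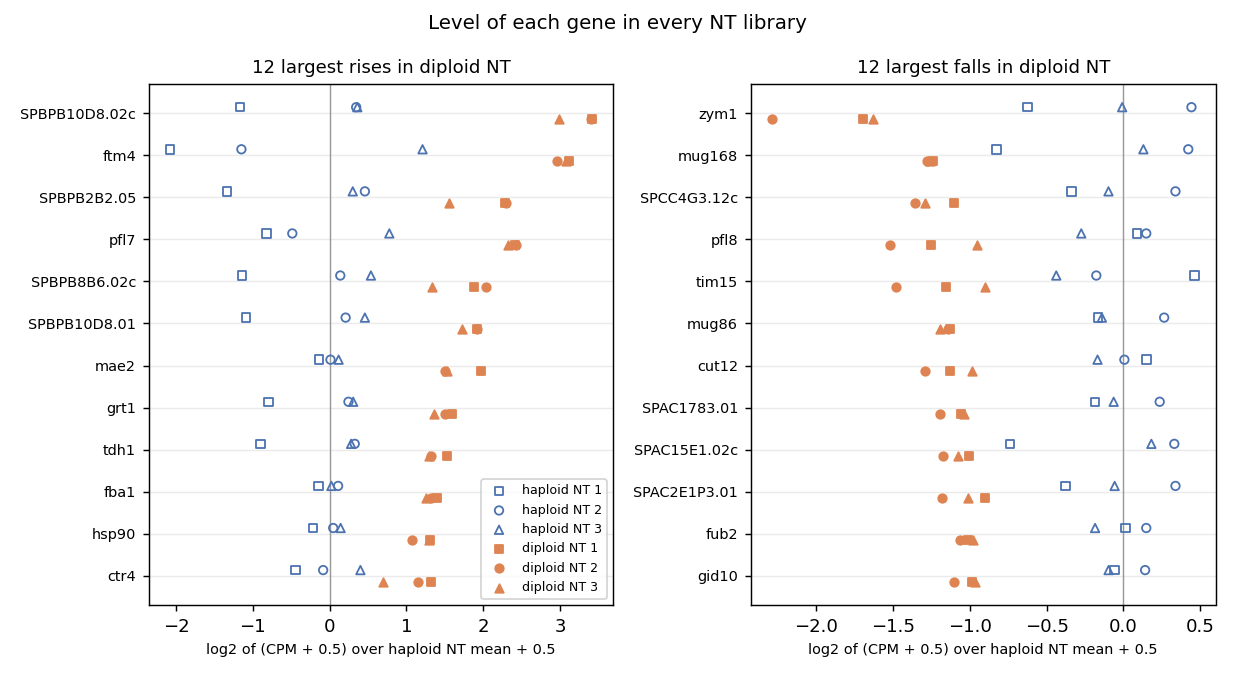
Level of the 12 genes with the largest rises and the 12 with the largest falls in every NT library, as the log2 of CPM plus 0.5 over the haploid NT mean plus 0.5. Open blue symbols are haploid NT and filled orange symbols diploid NT, with squares, circles and triangles for replicates 1, 2 and 3. The 24 genes were chosen without overlap between the groups, and haploid NT 1 lay apart from haploid NT 2 and 3 in *tdh1*, *mug168* and SPAC15E1.02c.

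The metallothionein gene *zym1* (chrI:2381690-2382200, plus strand) had the largest fall, and its small protein binds zinc. *zym1* stood at 505, 1060 and 775 CPM in haploid NT and 240, 159 and 251 CPM in diploid NT (log2FC -1.85, SE 0.30, adjusted p = 0.0057), and the highest diploid value was under the lowest haploid value by a wide gap. Falls of more than 2-fold in the fit that held were those of *cut12*, SPAC1783.01, *mug86*, *pfl8*, *gid10*, *fub2* and SPCC4G3.12c, with log2FC from -1.25 to -1.02. *cut12* (chrII:541153-543168, plus strand) encodes a spindle pole body protein that helps to start mitosis. *cut12* stood at 444, 402 and 356 CPM in haploid NT and 183, 163 and 202 CPM in diploid NT (log2FC -1.13, SE 0.12, adjusted p = 0.001). *gid10* is a Vid24 family gene, and budding yeast Gid10 is a substrate receptor of a ubiquitin ligase. *gid10* stood at 463, 532 and 451 CPM in haploid NT and 243, 224 and 246 CPM in diploid NT (log2FC -1.02, SE 0.12, adjusted p = 0.0014). *pfl8* encodes a surface glycoprotein, and it stood at 93, 97 and 72.2 CPM in haploid NT and 36.4, 30.1 and 44.9 CPM in diploid NT (log2FC -1.23, SE 0.17, adjusted p = 0.0027), so this flocculin fell where *pfl7* rose.

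SPAC1783.01 is annotated as a methionine synthase reductase and overlaps *vps66* on the other strand by 1391 bases. SPAC1783.01 stood at 103, 138 and 112 CPM in haploid NT and 55.9, 50.8 and 56.6 CPM in diploid NT (log2FC -1.11, SE 0.13, adjusted p = 0.0012). The acetate transporter gene *mug86* overlaps *mtf2* and *mug116*, by 420 bases on the other strand and 561 bases on its own strand. *mug86* stood at 96.4, 130 and 98 CPM in haploid NT and 49.2, 48.6 and 47 CPM in diploid NT (log2FC -1.16, SE 0.15, adjusted p = 0.0024). *tim15*, for a subunit of the mitochondrial TIM23 import complex, overlaps the cullin gene *cul3* on the other strand by 473 bases. The log2FC was -1.17 for *tim15* and -0.71 for *cul3*, and without a known strand setting these cannot be told apart. The falls of *mug168* (log2FC -1.26), SPAC2E1P3.01 (-1.03), SPAC15E1.02c (-1.09) and *tim15* did not hold.

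Some smaller changes had among the smallest adjusted p. SPCC584.03c, a GTPase regulator, stood at 298, 297 and 288 CPM in haploid NT and 168, 169 and 180 CPM in diploid NT (log2FC -0.77, SE 0.07, adjusted p = 0.0008). *spa2*, for a scaffold of the growing cell tip, stood at 294, 365 and 334 CPM in haploid NT and 173, 160 and 183 CPM in diploid NT (log2FC -0.94, SE 0.11, adjusted p = 0.0012). *ppk31*, a protein kinase gene, stood at 327, 345 and 355 CPM in haploid NT and 213, 226 and 222 CPM in diploid NT (log2FC -0.64, SE 0.07, adjusted p = 0.0012). The peroxisome gene *pex32*, SPAC1B3.15c and *yak3*, an aldo-keto reductase gene, also fell, with log2FC of -0.60, -0.96 and -0.88. All but *yak3* of these 6 held. SPAC1B3.15c overlaps its neighbours *vma3* and *vht1*, by 32 bases on the other strand and 67 bases on its own strand.

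Spike-ins gave a second scale, per cell. The ERCC mix, a set of artificial RNAs, had been added in equal volume to RNA from equal numbers of cells. Gene counts divided by a library's spike-in factor follow the mRNA per cell if RNA recovery was equal. The mix was added after RNA extraction, so unequal recovery would enter this scale, which was not tested. Scaled this way, haploid NT held 23.1, 11.6 and 12.9 and diploid NT 31.0, 30.8 and 27.0 in units of 1e+06 scaled counts, with means of 15.8 ± 6.3 and 29.6 ± 2.2 (SD, n = 3). The groups did not overlap, and the ratio of the means was 1.87 (two-sided exact permutation test, p = 0.1, the smallest that 3 against 3 allow). The ratio was 2.43 without haploid NT 1 and between 1.65 and 1.95 without any 1 of the other NT libraries. The median gene was 1.80-fold higher per cell, a shift of 0.84 in log2FC, and the directions given elsewhere in the text are relative to it.

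Per cell, a gene that "fell" was in most cases still at or above its haploid level. Past both thresholds 3564 genes were higher per cell (77.7%) and 1 lower (0.0218%). The ERCC-scaled log2FC was above 0 for 4550 of the 4584 genes and for 61 of the 82 genes that were lower as a share of the mRNA. The median of the 82 was 0.14 on this scale, close to equal mRNA per cell in both ploidies, and the median of the 51 was 1.68. Examples near equality were *wtf23* (1.02-fold), SPCC584.03c (1.04-fold), *rad8* (1.06-fold) and *mok11* (1.07-fold). At the low end were *zym1* (0.537-fold), SPBC21.03c (0.507-fold), *tim15* (0.735-fold), *pfl8* (0.75-fold) and *cut12* (0.794-fold). Unlike the others, SPBC21.03c was not among the 82. The ERCC-scaled log2FC was -0.90 for *zym1* (SE 0.25), -0.41 for *pfl8* (SE 0.30) and -0.33 for *cut12* (SE 0.28). Such folds below 1 are thus uncertain for single genes. On this scale all 3 diploid values lay under all 3 haploid values in 2 of the 4584 genes. Genes at the high end included SPBPB10D8.02c (22.7-fold), *ftm4* (18.1-fold), SPBPB2B2.05 (12-fold), *pfl7* (11.5-fold), *str3* (8.1-fold), SPBPB8B6.02c (7.89-fold) and *mae2* (5.86-fold).

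Gene groups moved around the median gene on the same scale. Median per-cell folds were 2.96 for glycolysis and fermentation, 2.31 for heat shock chaperones, 2.19 for histones and 2.14 for ribosomal proteins. They were 1.78 for the nuclear pore complex and for the nuclear-encoded respiratory chain, 1.62 for DNA repair, 1.59 for cell wall synthesis and 1.31 for *wtf* genes. These folds rest on spike-in factors of 0.749, 1.36 and 1.26 in the haploid NT libraries, so haploid NT 1 moves each of them.

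**Figure D2:**
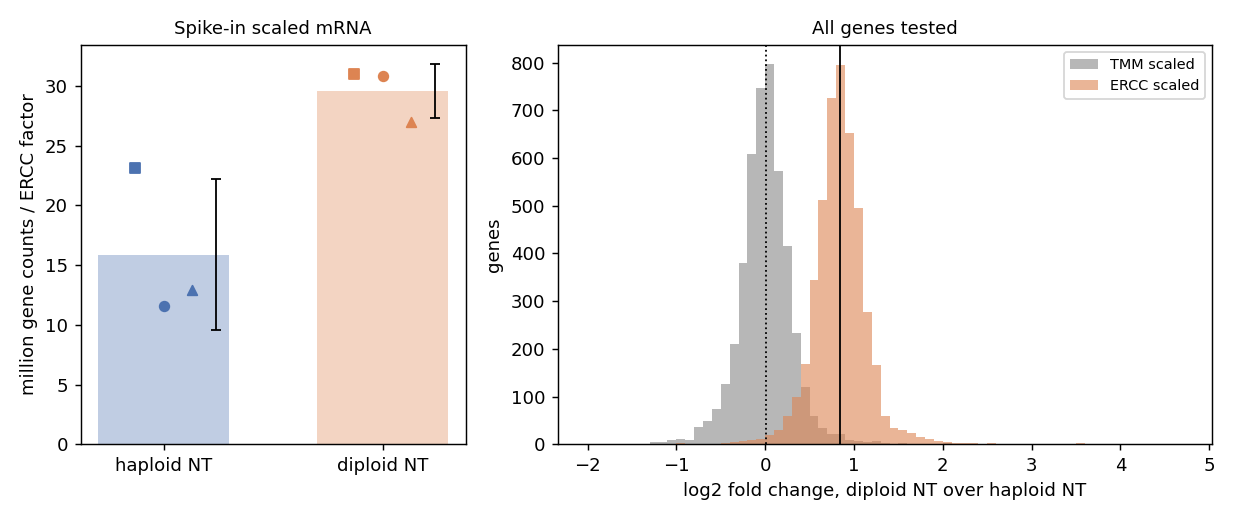
Left, gene counts divided by the ERCC spike-in factor in units of 1e+06, with each library as a symbol (square, circle and triangle for replicates 1, 2 and 3), bars for group means and error bars for the SD (n = 3). Right, number of genes by log2FC of diploid NT over haploid NT under TMM (grey, median 0.01, dotted line) and spike-in scaling (orange, median 0.84, solid line). Haploid NT 1 lay at 23.1, and the distribution of genes lies to the right under spike-in scaling.

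Carbon metabolism held the group with the highest median among the lists with at least 10 genes. Glycolysis splits glucose to pyruvate, from which fermenting yeast makes ethanol. Of 17 genes of glycolysis and fermentation tested, 4 rose and none fell, against 1.88% and 3.82% of all genes. The median log2FC of the list was 0.71 against 0.01 over all genes, and 15 were above 0 (51.4% of all genes). Between 1 and 5 rose when 1 NT library was left out, and 5 without haploid NT 1. The aldolase gene *fba1* (chrII:1688336-1689599, plus strand) held, and it stood at 1140, 1360 and 1280 CPM in haploid NT and 3310, 3140 and 3010 CPM in diploid NT (log2FC 1.32, SE 0.21, adjusted p = 0.0058). The glyceraldehyde-3-phosphate dehydrogenase gene *tdh1* passed but did not hold. *tdh1* stood at 925, 2170 and 2100 CPM in haploid NT and 4970, 4330 and 4250 CPM in diploid NT (log2FC 1.38, SE 0.34, adjusted p = 0.036). Its haploid NT 1 value was under the other haploid values by more than 2-fold. The pyruvate kinase gene *pyk1* (log2FC 0.71) and the phosphofructokinase gene *pfk1* (0.55) rose and did not hold. Summed over the 17 genes the level was 14476, 20102 and 19012 CPM in haploid NT and 36291, 33150 and 33945 CPM in diploid NT, so the groups did not overlap.

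Some genes that bring carbon into the cell or feed it into this route rose as well. Of 8 hexose transporter genes 2 rose and none fell (median log2FC 0.52), against 1.88% and 3.82% of all genes. The high-affinity transporter gene *ght5* stood at 226, 303 and 294 CPM in haploid NT and 534, 537 and 539 CPM in diploid NT (log2FC 0.97, SE 0.21, adjusted p = 0.024). *ght8* stood at 1390, 1230 and 1330 CPM in haploid NT and 1920, 2110 and 1940 CPM in diploid NT (log2FC 0.59, SE 0.14, adjusted p = 0.028). Neither held, and the MMS libraries gave a log2FC of 0.03 for *ght5*. Among 11 genes of gluconeogenesis and alternative carbon use 2 rose, of which *mae2* (chrIII:275261-277340, minus strand) had the larger change and held. *mae2* stood at 118, 131 and 141 CPM in haploid NT and 509, 368 and 375 CPM in diploid NT (log2FC 1.68, SE 0.17, adjusted p = 0.00081). The dihydroxyacetone kinase gene *dak2* rose too (log2FC 0.93), although it overlaps SPAC977.17 on the other strand by 762 bases. The TCA cycle (1 of 14 rose, median 0.09) and the pentose phosphate pathway (0 of 8, median 0.26) gave few calls, and none of 36 genes of the nuclear-encoded respiratory chain and ATP synthase passed in either direction (median -0.01). Without haploid NT 1 the respiratory genes had 1 rise and 2 falls, the TCA cycle 2 rises and 1 fall, the pentose phosphate pathway 1 rise and gluconeogenesis 2 falls beside its 2 rises. DESeq2 gave 4 falls among the respiratory genes, as did the fit with the length trend removed.

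Chaperones fold new and damaged proteins, and their genes are switched on by heat shock factor, which binds inverted repeats of GAA. Of 23 heat shock chaperone genes tested 5 rose and none fell, against 1.88% and 3.82% of all genes. In this list 22 were above 0 (median log2FC 0.31), against 51.4% of all genes. Counts of 4 to 7 rising genes were found when 1 NT library was left out. *hsp90*, at chrI:3888558-3891157, minus strand, stood at 603, 723 and 773 CPM in haploid NT and 1740, 1470 and 1710 CPM in diploid NT (log2FC 1.23, SE 0.13, adjusted p = 0.00081). The Hsp70 family gene *pss1*, of the Hsp110 type, stood at 708, 587 and 602 CPM in haploid NT and 1040, 1210 and 988 CPM in diploid NT (log2FC 0.77, SE 0.14, adjusted p = 0.0086). The J-domain partner gene *mas5* stood at 410, 333 and 354 CPM in haploid NT and 536, 606 and 568 CPM in diploid NT (log2FC 0.64, SE 0.11, adjusted p = 0.0067). All 3 of these encode parts of the Hsp90 and Hsp70 systems and their groups did not overlap. *fes1*, for a nucleotide exchange factor of Hsp70, stood at 63.7, 67.5 and 60.5 CPM in haploid NT and 115, 84.9 and 109 CPM in diploid NT (log2FC 0.69, SE 0.11, adjusted p = 0.0065). These 4 genes held. The Hsp70 gene *ssa2* passed (log2FC 0.90) and did not hold, with 971 CPM in haploid NT 1 against 1720 and 1680 CPM in haploid NT 2 and 3.

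The 250 bases before the annotated start of *hsp90* and *pss1* are shown because these are the chaperone genes of the 5 whose window held a heat shock repeat and no other mRNA. Capitals mark the match to GAANNTTC, which was searched with TTCNNGAA on both strands, and positions are from RefSeq ASM294v3, 5′ to 3′ along the gene. The *hsp90* window is chrI:3891158-3891407 (minus strand), with the match 32 to 39 bases before the start, and the *pss1* window is chrI:1920868-1921117 (minus strand), with the match 10 to 17 bases before it.
hsp90: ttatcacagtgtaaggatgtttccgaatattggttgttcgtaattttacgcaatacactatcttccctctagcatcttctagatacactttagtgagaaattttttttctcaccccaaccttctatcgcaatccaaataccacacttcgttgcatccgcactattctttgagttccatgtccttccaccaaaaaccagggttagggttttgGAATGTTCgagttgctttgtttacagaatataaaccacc
pss1: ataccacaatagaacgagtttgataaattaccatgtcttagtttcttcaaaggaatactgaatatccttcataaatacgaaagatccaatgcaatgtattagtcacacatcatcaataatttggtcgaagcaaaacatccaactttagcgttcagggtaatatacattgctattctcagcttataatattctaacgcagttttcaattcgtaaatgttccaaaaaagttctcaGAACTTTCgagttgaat
A match was found for 3 of the 5 chaperone genes that rose, for 11 of the 18 that did not pass and for 16.4% of the windows of all genes, so the letters did not separate the chaperone genes that rose from the others of the list. The *ssa2* window held 2 matches and lies within the annotated mRNA of a neighbour, so it is not shown.

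Genes of metal and phosphate uptake are given by metal. The plasma membrane zinc transporter gene *zrt1* (chrII:3607199-3609330, plus strand) had the smallest adjusted p of all genes together with SPCC584.03c and held. *zrt1* stood at 77.6, 87.5 and 88.5 CPM in haploid NT and 180, 183 and 156 CPM in diploid NT (log2FC 1.03, SE 0.10, adjusted p = 0.0008). Of 8 genes of zinc homeostasis 1 rose and 2 fell, against 1.88% and 3.82% of all genes. Those that fell were *zym1* and *cis4*, a zinc transporter gene of the secretory pathway (log2FC -0.34). The mRNA of the zinc importer thus rose while that of the zinc-binding metallothionein fell.

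Of 15 iron homeostasis genes 3 rose and none fell (median log2FC 0.27), against 1.88% and 3.82% of all genes. The siderophore transporter gene *str3* had 5, 13 and 10 counts in haploid NT and 41, 32 and 47 in diploid NT (log2FC 2.08, SE 0.41, adjusted p = 0.013). The vacuolar transporter gene *abc3* stood at 93.7, 89.8 and 107 CPM in haploid NT and 135, 135 and 138 CPM in diploid NT (log2FC 0.49, SE 0.09, adjusted p = 0.0088). The glutaredoxin gene *grx4* rose with a log2FC of 0.42, and of these 3 only *abc3* held. Of 8 copper genes 2 rose, against 1.88% of all genes, both for subunits of the high-affinity transporter. *ctr4* stood at 50, 64.3 and 90.2 CPM in haploid NT and 171, 152 and 111 CPM in diploid NT (log2FC 1.08, SE 0.24, adjusted p = 0.025). *ctr5* rose with a log2FC of 0.54, and neither of them held. The phosphate transporter gene *pho84* stood at 238, 146 and 196 CPM in haploid NT and 399, 334 and 420 CPM in diploid NT (log2FC 0.99, SE 0.25, adjusted p = 0.04) and did not hold. It was the single call among 6 phosphate genes, of which 2 rose without haploid NT 1.

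Most genes of amino acid synthesis had a log2FC slightly above 0. Of 44 amino acid synthesis genes 40 had a log2FC above 0 (51.4% of all genes) and the median was 0.27. In this list 3 rose and none fell, against 1.88% and 3.82% of all genes. The 3 that rose were *his1*, *gln1*, for glutamine synthetase, and *tyr1*, with log2FC of 0.49, 0.45 and 0.44. None of them held, and 10 of the 44 rose without haploid NT 1. The amino acid transporter gene *aat1* stood at 47.6, 58 and 72.5 CPM in haploid NT and 96.6, 94.3 and 110 CPM in diploid NT (log2FC 0.76, SE 0.16, adjusted p = 0.022), and the peptide transporter gene *ptr2* rose from 17.3, 20 and 17.6 CPM to 30.7, 28 and 31.5 CPM. Neither of these transporter genes held. Purine synthesis bears on the *ade6* difference between the strains. Of 11 genes 10 were above 0 (median 0.22) and *ade2* alone rose (log2FC 0.45), and it did not hold. In the fit without haploid NT 1, 1 purine gene rose and 1 fell. *ade6* stood at 196, 138 and 144 CPM in haploid NT and 166, 158 and 165 CPM in diploid NT (log2FC 0.03, SE 0.14, adjusted p = 0.93), and the groups overlapped.

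Lipid genes moved in both directions. In ergosterol synthesis 3 of 26 genes rose and 1 fell, against 1.88% and 3.82% of all genes. In this list 23 were above 0, against 51.4% of all genes, and the median log2FC was 0.20. The squalene epoxidase gene *erg1* stood at 394, 394 and 448 CPM in haploid NT and 627, 842 and 712 CPM in diploid NT (log2FC 0.82, SE 0.16, adjusted p = 0.013), *erg28* and *idi1* rose by 0.82 and 0.48 in log2FC and *erg32* fell by 0.43. None of these 4 held. Of 25 genes of phospholipid and sphingolipid metabolism 2 rose (*slc1* and *cho2*) and 2 fell. The latter were the lysophospholipase gene *nte1* and *its3*, which encodes the kinase that makes the signalling lipid PI(4,5)P2 at the plasma membrane. *nte1* stood at 734, 811 and 779 CPM in haploid NT and 483, 493 and 525 CPM in diploid NT (log2FC -0.63, SE 0.08, adjusted p = 0.0024). *its3* stood at 589, 589 and 556 CPM in haploid NT and 383, 405 and 371 CPM in diploid NT (log2FC -0.58, SE 0.08, adjusted p = 0.0027). Both of these held. Leaving out haploid NT 1 gave 3 rises and 4 falls among phospholipid genes and 2 falls among ergosterol genes.

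Ribosomal protein genes show how far the haploid libraries differed. Of 125 tested, 118 had a log2FC above 0 (51.4% of all genes) and the median was 0.36. None passed an adjusted p under 0.05 in either direction. Their summed level was 113270, 80671 and 74636 CPM in haploid NT and 112729, 113159 and 117524 CPM in diploid NT. Haploid NT 1 therefore lay within the diploid range, and without it 79 of the 125 rose and the median was 0.56. DESeq2, which estimates the spread in another way, called 11 of them as higher. Of 34 translation factor genes 29 were above 0 (median 0.22), none rose and *gcn1*, which encodes a regulator of the kinase that senses amino acid starvation, fell (log2FC -0.51), and without haploid NT 1 the counts were 9 and 1. Of 16 aminoacyl-tRNA synthetase genes *frs2* alone rose (log2FC 0.50, median of the list 0.26), and 4 rose without haploid NT 1. In ribosome biogenesis 3 of 39 genes fell (*rsa1*, *cgr1* and *tsr1*), against 3.82% of all genes, and the median was 0.04. Haploid NT 1 had the highest summed level of the 6 libraries for this list, 15522 CPM against 9483 to 11988 CPM in the others. Without it 1 of these genes rose.

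**Figure D3:**
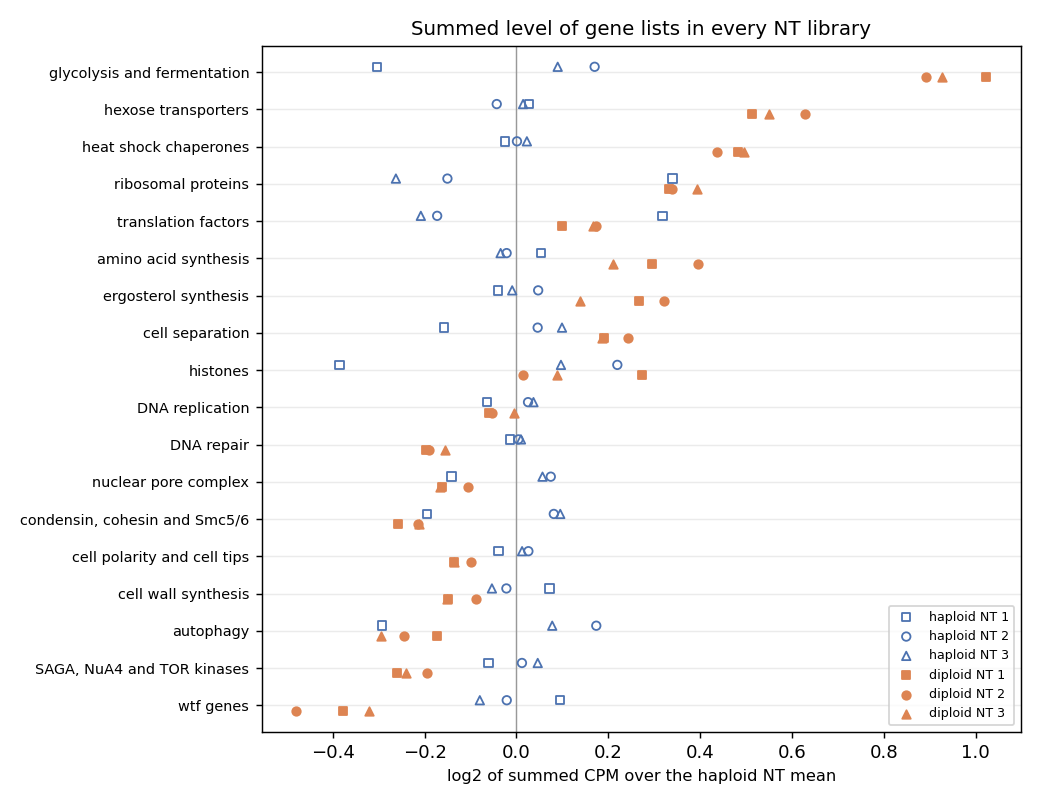
Summed CPM of 18 gene lists in every NT library, as the log2 over the haploid NT mean of the list. Open blue symbols are haploid NT and filled orange symbols diploid NT, with squares, circles and triangles for replicates 1, 2 and 3. The groups overlapped for ribosomal proteins, translation factors, histones, DNA replication, the nuclear pore complex and autophagy, and did not overlap for the other lists. Haploid NT 1 lay within the diploid range for ribosomal proteins (113270 CPM).

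Cell separation joined the groups with rising members. After cytokinesis the daughter cells part when glucanases digest the septum. Of 15 cell separation genes 3 rose and 1 fell, against 1.88% and 3.82% of all genes. In this list 12 were above 0 (median log2FC 0.11), against 51.4% of all genes. The septum glucanase gene *eng1* (chrI:998686-1002361, plus strand) held. *eng1* stood at 47.9, 47.1 and 49.9 CPM in haploid NT and 84.1, 77.2 and 106 CPM in diploid NT (log2FC 0.88, SE 0.13, adjusted p = 0.0044). The glucanase gene *exg1* stood at 196, 261 and 249 CPM in haploid NT and 353, 340 and 307 CPM in diploid NT (log2FC 0.50, SE 0.13, adjusted p = 0.042), and *adg2* stood at 84.4, 72.8 and 87.1 CPM in haploid NT and 111, 106 and 135 CPM in diploid NT (log2FC 0.53, SE 0.14, adjusted p = 0.05). The *adg2* value lay just under the threshold, neither of these 2 genes held, and the septin-associated GEF gene *gef3* fell with a log2FC of -0.42 and did not hold. The transcripts of mitotic entry and cytokinesis gave no call among 26 genes (median 0.01). When haploid NT 1 was left out, 1 of these 26 and 2 of the cell separation genes fell.

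Genes of the cell wall lay mostly below the median gene. Of 32 cell wall synthesis genes 1 rose and 5 fell, against 1.88% and 3.82% of all genes. Only 4 of them were above 0, against 51.4% of all genes, with a median log2FC of -0.19. Between 1 and 6 fell when 1 NT library was left out. The alpha-glucan synthase gene *mok11* held, and it stood at 365, 360 and 343 CPM in haploid NT and 199, 226 and 216 CPM in diploid NT (log2FC -0.73, SE 0.11, adjusted p = 0.0039). Its paralogue *mok12* stood at 237, 395 and 357 CPM in haploid NT and 196, 200 and 173 CPM in diploid NT (log2FC -0.79, SE 0.19, adjusted p = 0.032). The wall sensor genes *wsc1* and *mtl2* fell with log2FC of -0.52 and -0.31 and the beta-glucan synthase gene *bgs2* with -0.30, and none of these 4 held. Summed over the list the levels were 17299, 16208 and 15858 CPM in haploid NT and 14831, 15486 and 14817 CPM in diploid NT, without overlap. Per cell the median wall gene was still 1.59-fold higher in diploids.

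Of 37 genes of cell polarity and cell tips 4 fell and none rose (median log2FC -0.08), against 3.82% and 1.88% of all genes. After *spa2*, the clearest was its partner in the tip complex that organizes actin, *bud6*. *bud6* stood at 245, 280 and 265 CPM in haploid NT and 175, 174 and 175 CPM in diploid NT (log2FC -0.59, SE 0.08, adjusted p = 0.0024). The exocyst gene *sec15* and the Cdc42 activator gene *gef1* fell with log2FC of -0.53 and -0.34 and did not hold. Size control is of interest since diploids divide at a larger size. Among 15 genes of size control and CDK *cdr1*, which encodes a kinase that inhibits Wee1, alone passed. *cdr1* stood at 260, 263 and 256 CPM in haploid NT and 206, 208 and 191 CPM in diploid NT (log2FC -0.36, SE 0.08, adjusted p = 0.027), and this fall of a small size did not hold. Leaving out haploid NT 1 gave 2 falls in the list.

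Chromosome duplication and segregation showed scattered falls with list medians near 0. In DNA replication 4 of 51 genes fell and none rose (median log2FC 0.03), against 3.82% and 1.88% of all genes. The DNA ligase gene *cdc17* stood at 214, 222 and 195 CPM in haploid NT and 107, 110 and 120 CPM in diploid NT (log2FC -0.90, SE 0.13, adjusted p = 0.0031). The DNA polymerase delta subunit gene *cdc1* stood at 274, 322 and 289 CPM in haploid NT and 196, 188 and 202 CPM in diploid NT (log2FC -0.60, SE 0.08, adjusted p = 0.003). Both held and neither overlapped between the groups, as did *mcm5*, of the replicative helicase (log2FC -0.55), which overlaps the potassium transporter gene *trk1* on the other strand by 2673 bases. *rfc1*, for the clamp loader, fell with a log2FC of -0.30 and did not hold.

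DNA repair had a lower median. Of 50 genes 3 fell and none rose, against 3.82% and 1.88% of all genes. In this list 15 were above 0 (median log2FC -0.16), against 51.4% of all genes, and 7 fell and 1 rose without haploid NT 1. Of the 3 that fell *ctp1*, which starts the processing of broken DNA ends, held. *ctp1* stood at 153, 150 and 133 CPM in haploid NT and 103, 96.5 and 105 CPM in diploid NT (log2FC -0.51, SE 0.09, adjusted p = 0.008). The ubiquitin ligase gene *rad8*, of postreplication repair, stood at 546, 422 and 406 CPM in haploid NT and 269, 274 and 311 CPM in diploid NT (log2FC -0.69, SE 0.13, adjusted p = 0.011), and *xrc4*, of end joining, fell with a log2FC of -0.52. The checkpoint kinase gene *tel1* passed (log2FC -0.42) and neither it nor the last 2 held. Among 24 G1/S genes of MBF *ctp1* alone fell (median 0.07), and none of 11 histone genes passed (median 0.15). With haploid NT 1 left out, 3 MBF genes and 2 of 14 checkpoint genes fell, and the medians were -0.05 for MBF and -0.04 for histone genes.

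Condensin and separase gave small falls. Of 19 genes of condensin, cohesin and Smc5/6 3 fell and none rose, against 3.82% and 1.88% of all genes, with a median log2FC near 0. The condensin subunit gene *cnd1* stood at 209, 241 and 229 CPM in haploid NT and 153, 159 and 157 CPM in diploid NT (log2FC -0.53, SE 0.09, adjusted p = 0.008). *cut14*, a further condensin subunit gene, and *cut1*, for separase, had log2FC of -0.45 and -0.61 and did not hold. Without haploid NT 1 the count was 5.

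At the spindle the changes went in both directions. *cut12* was the single call among 18 genes of the spindle pole body and gamma-tubulin (median -0.01). In the list of spindle, kinetochore and checkpoint genes 3 of 48 fell and 2 rose (median -0.08), against 3.82% and 1.88% of all genes. The checkpoint kinase gene *bub1* stood at 287, 346 and 334 CPM in haploid NT and 203, 222 and 205 CPM in diploid NT (log2FC -0.62, SE 0.09, adjusted p = 0.0034). The kinesin-5 gene *cut7*, whose motor pushes the spindle poles apart, stood at 218, 251 and 229 CPM in haploid NT and 160, 156 and 168 CPM in diploid NT (log2FC -0.53, SE 0.09, adjusted p = 0.0076). Both held, while *mis17* (log2FC -0.32), which has SPBC21.03c on its other strand, did not. The CENP-C gene *cnp3* (0.37) and the microtubule end-binding gene *mal3* (0.33) rose and did not hold. In the fit without haploid NT 1, 5 genes of this list fell and 2 rose, and 2 spindle pole body genes fell.

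The nuclear envelope was represented by 30 nuclear pore genes, of which 3 fell and none rose (median log2FC 0.00), against 3.82% and 1.88% of all genes. *nup124* stood at 325, 496 and 457 CPM in haploid NT and 239, 247 and 234 CPM in diploid NT (log2FC -0.83, SE 0.14, adjusted p = 0.0067) and held, whereas *nup131* (-0.41) and *nup146* (-0.38) did not. Without haploid NT 1 the counts were 6 and 1. For SAGA, NuA4 and TOR kinases 3 of 23 genes fell (median -0.10), against 3.82% of all genes. *tra1*, for a very large subunit of the SAGA coactivator, stood at 489, 586 and 581 CPM in haploid NT and 309, 340 and 328 CPM in diploid NT (log2FC -0.76, SE 0.11, adjusted p = 0.003) and held, while *tor2* (-0.45) and *tel1* did not. In autophagy 3 of 30 genes fell and 7 were above 0 (median -0.16), against 3.82% and 51.4% of all genes. *atg13*, of the kinase complex that starts autophagy, stood at 225, 344 and 317 CPM in haploid NT and 175, 173 and 173 CPM in diploid NT (log2FC -0.77, SE 0.13, adjusted p = 0.0077) and held, and *atg20* (-0.68) and *atg1802* (-0.53) did not. Between 1 and 6 autophagy genes fell when 1 NT library was left out, and without haploid NT 1 the counts were 6 falls and 1 rise.

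Stress genes gave few calls, where 1.88% of all genes rose and 3.82% fell. Of 35 genes of the core environmental stress response *sro1* rose (log2FC 0.80), *zym1* fell and the median was -0.07, but without haploid NT 1 the counts were 4 and 7. Of 22 antioxidant enzyme genes *grx4* alone passed (median 0.11), and 4 rose and 1 fell without haploid NT 1. Neither proteasome genes (30, median 0.05), RNA polymerase genes (27, median 0.02), CCT and prefoldin genes (8, median 0.18) nor the 13 genes of mating and entry into meiosis (median 0.04) gave a call. With haploid NT 1 left out, 2 RNA polymerase genes and 1 mating gene rose.

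Gene length was examined because several falling genes are very long. Of 65 genes over 6000 bases 14 fell (21.5%) and none rose, against 3.82% and 1.88% of all genes, and their median log2FC was -0.13. Genes over 4000 bases, 7.98% of all, included a further 15 falls and 3 rises among the 301 of 4000 to 6000 bases. In shorter classes the share that fell ran from 0% for genes of up to 500 bases to 5.12% for genes of 2000 to 4000 bases. The slope of log2 CPM on log2 length was 0.294, 0.367 and 0.406 in haploid NT and 0.298, 0.337 and 0.297 in diploid NT. These slopes overlapped, with a difference of -0.0448 (two-sided exact permutation test, p = 0.4). With the length trend of each library removed 10 of the 65 fell. A length bias of the libraries and a change in long genes cannot be told apart from these values, and 18 of the 65 fell without haploid NT 1.

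**Figure D4:**
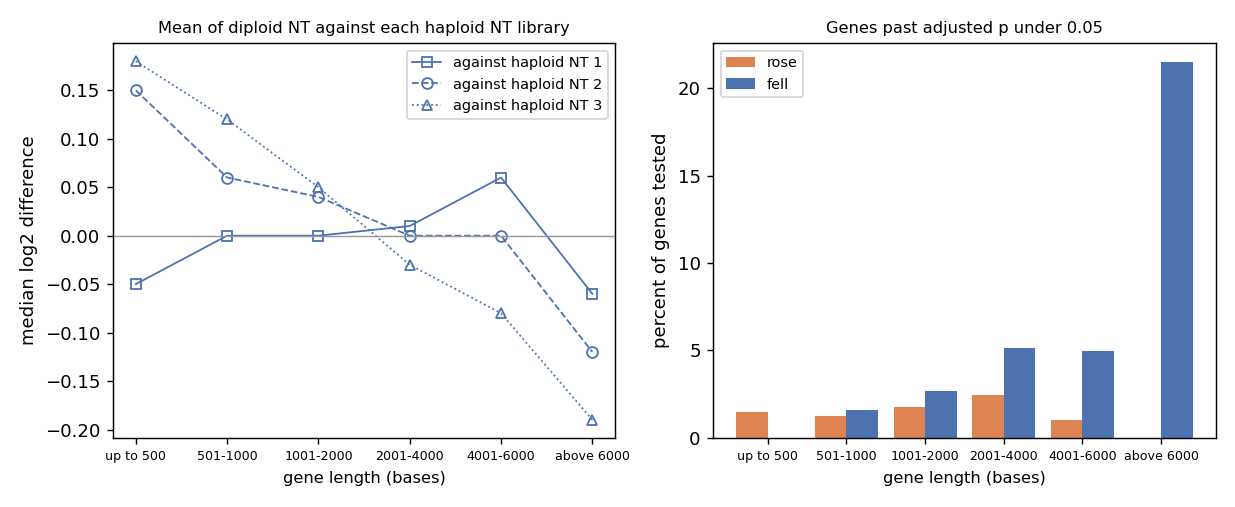
Left, median over genes of the log2 ratio of the diploid NT mean to each haploid NT library, by class of gene length in bases (square, circle and triangle for haploid NT 1, 2 and 3). Right, percent of the genes of each length class that rose or fell at an adjusted p under 0.05. The class over 6000 bases had 21.5% falling and no rising genes, and all 3 haploid libraries gave a median below 0 there.

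Genes past both thresholds lay on every chromosome. Within 100 kb of a chromosome end lay 14 of the 51 higher genes and 6 of the 82 lower genes. The median log2FC was 0.01 on chromosome I, 0.02 on chromosome II and -0.03 on chromosome III, and in 46 windows of up to 100 genes it lay between -0.09 and 0.11. No window median came near the fold threshold of 0.58. Under spike-in scaling the windows lay between 0.75 and 0.96. Genes near chromosome ends included the largest rises. Of 134 tested within 100 kb of an end, 14 rose and 8 fell with a median of 0.23 (1.88% and 3.82% of all genes). The left end of chromosome II had 5 of these 14, namely SPBPB8B6.02c, *grt1*, *cmt2*, SPBPB10D8.01 and SPBPB10D8.02c, among 20 genes tested. The other ends had 1 or 2 rising genes each. *cmt2*, for a catechol O-methyltransferase, and *aah1*, for a surface glycosyl hydrolase near the left end of chromosome III, rose with log2FC of 0.70 and 0.62 and held. When 1 NT library was left out the number that rose near the ends ranged from 3 to 22, with 22 without haploid NT 1.

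The *wtf* genes are a family of meiotic drivers that lie mainly on chromosome III, and most of them had a log2FC below 0. Of 18 tested, 3 fell and 1 was above 0, against 3.82% and 51.4% of all genes. In 12 of them the diploid values lay under all haploid values (14.7% of all genes). The median log2FC was -0.40, and 3 fell in each of the fits without 1 NT library. *wtf19* stood at 111, 112 and 89.8 CPM in haploid NT and 63.9, 61.7 and 60.1 CPM in diploid NT (log2FC -0.75, SE 0.11, adjusted p = 0.0034). *wtf23* stood at 87.6, 82.1 and 68.1 CPM in haploid NT and 49.3, 42 and 46.1 CPM in diploid NT (log2FC -0.79, SE 0.14, adjusted p = 0.0088). *wtf9* stood at 140, 124 and 114 CPM in haploid NT and 78.3, 76.5 and 79.9 CPM in diploid NT (log2FC -0.68, SE 0.12, adjusted p = 0.007). Summed over the family the levels were 1279, 1180 and 1133 CPM in haploid NT and 922, 859 and 958 CPM in diploid NT, so the groups did not overlap. The 4 Tf2 retrotransposon genes had a median of 0.57, none passed, and their summed levels overlapped at 12.6 to 18.9 CPM and 16.7 to 23.6 CPM. Members of both families and several genes near chromosome ends have close copies in the genome, so the reads of single members are uncertain.

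Some called genes were neighbours. Of the 133 genes past both thresholds, 10 pairs were next to each other and 8 of these moved in the same direction. In 3 pairs the genes overlap, *cul3* with *tim15*, SPBPB10D8.01 with SPBPB10D8.02c, and *pex32* with *atd3*. The transporter gene *aat1* lies next to *pfl7* with 4419 bases between them, and both rose. An overlap with a gene on the other strand was annotated for 16 of the 51 genes that were higher and 27 of the 82 that were lower, against 40.2% of all genes.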

How the data were processed

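Poly(A) RNA of 3 haploid NT and 3 diploid NT libraries, with ERCC spike-ins, was sequenced in pairs. The authors aligned the reads with STAR (2.7.0e) and deposited raw read counts per gene from featureCounts. For featureCounts the version and strand setting, and for the alignment the genome build, are not stated in any source used here.

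The deposited table held 4857 genes and 92 ERCC rows. All 4855 genes matched to RefSeq (ASM294v3) lay on the same chromosome there, and 4842 shared a start or end. Genes with fewer than 5 reads in at least 2 of the 12 libraries were left out. So were 2 genes whose open reading frames are identical, as the study did. The NT libraries held 15684278 to 18855166 gene counts. In R 4.3.3, edgeR 4.0.16 (TMM, quasi-likelihood) was fitted to all 12 libraries with a mean per condition, and diploid NT was tested against haploid NT over 4584 genes. DESeq2 1.42.0 and limma 3.58.1 served the alternatives and the fits. Per-cell values used median-of-ratios factors over 60 ERCC transcripts. The code was tested on simulated data.

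Genes were named by rule, as the 12 largest rises and falls without overlap and with a mean of at least 5 CPM, the 15 smallest adjusted p, up to 4 passing genes per list, the genes the study names, marker loci and the 10 lowest and 10 highest genes per cell. *ssa2*, *mtl2*, *mis17*, *cul3* and *atd3* lie outside the rule and were named after their values were seen. The comparison, its 49 gene lists and its tests were chosen with earlier results of these data known.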

Additional observations from a re-analysis of the deposited data

How the results depend on the processing

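The counts of 51 higher and 82 lower genes became 80 and 107 with DESeq2, 16 and 14 at an absolute log2FC above 1, and 86 and 175 at an adjusted p under 0.05 alone. With ERCC factors they became 3564 and 1, since that scaling moves every gene by the per-cell shift. Leaving out 1 NT library gave 20 to 135 higher and 41 to 151 lower genes, with the largest counts without haploid NT 1. RLE factors (51 and 85), both other filters (52 and 82), the 6 NT libraries alone (57 and 74) and removal of the length trend (54 and 80) stayed within 1.5 times. The spike-in ratio of 1.87 lay between 1.85 and 1.90 with other spike-in factors and between 1.65 and 2.43 without 1 NT library. The difference in length slope was -0.0517 with genomic span, -0.028 outside ribosomal protein and glycolysis genes, and between -0.0756 and -0.0196 without 1 NT library. No gene named by rule that passed changed sign under the other settings, or with ERCC factors once the shift of the median gene was taken off, whereas on the ERCC scale itself 61 of the 82 lower genes lay above 0. The depth of 15684278 to 18855166 counts limits genes with few reads, such as *str3* and SPBPB2B2.05, and 3 libraries per group limit every count of calls.

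Replicate numbers were shared by both ploidies. Over genes, the deviations of same-numbered haploid and diploid NT libraries correlated at -0.26, 0.12 and -0.11. Those of differently numbered libraries correlated at -0.40 to 0.39. Deviations around the mean of 3 libraries cancel for each gene, so these values cannot show whether the numbers pair the samples. With a replicate block the counts were 64 higher and 85 lower.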

Other observations

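The rise of *ght5*, with a log2FC of 0.97 untreated, was 0.03 in the MMS libraries, and that of *erg1* was 0.82 untreated and 0.24 in MMS. In contrast *ftm4* was at 3.21 untreated and 3.38 in MMS, and *aat1* at 0.76 and 1.14. These differences between the treatments were not tested.

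By level, 65 of 917 genes with a mean of 148 to 278 CPM fell and 11 rose, against 9 that fell and 17 that rose among 917 genes with a mean of up to 48.3 CPM and 43 that fell and 34 that rose among 917 genes with a mean of at least 278 CPM. Genes with 4 or more exons had 4 rises and 24 falls among 645, and genes with a single exon 65 and 104 among 2347. Over all genes 1.88% rose and 3.82% fell.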
